A study of Mus musculus with 13 samples.

Results

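The 6 ATAC-seq libraries of PEM-restricted haematopoietic stem cells (PEM-HSC replicates 1 to 6) were examined for the genomic regions whose accessibility differed among them. They were taken by their sample labels, were kept as 1 group, and made up 6 of the 13 libraries of the series. The other 4 libraries of multilineage HSCs (MUL-HSC) and 3 of P-restricted HSCs (PLT-HSC) served as a separate set in which the same regions could be measured again.

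Per the series description, each recipient mouse had received 1 Vwf+ HSC and was classed by the lineages it had restored over 16 weeks. All 3 groups share the C57BL/6 strain, bone marrow as the tissue, and a sorting gate for donor-derived CD45.2+ cells that were LSK, CD150+, CD48-, Flt3- and Gata1-, and they carry no drug or other treatment in the labels. Each replicate held 500 sorted cells, processed by bulk Omni-ATAC-seq. The cells of 1 recipient descend from 1 transplanted stem cell. Whether the replicates of a group come from different recipients is not said in the labels. The p-values therefore speak of these libraries alone, and differences among them may be technical.

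An HSC renews itself and gives rise to the blood lineages, and in the literature on these cells PEM stands for output of platelets, erythroid cells and myeloid cells without lymphoid cells. In ATAC-seq a transposase cuts and tags DNA that is not shielded by nucleosomes, so that promoters and enhancers in use give many reads and closed chromatin gives few. A change in a bulk library can come from fewer cells with an open region or from less cutting per cell, and these cannot be told apart. No mm9 annotation was used here, so regions are named by mm9 position without genes, and the HSC identity was not checked against marker loci.

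PEM-HSC library totals were 2578500, 1276962, 1958838, 3851165, 3823657 and 1731365 counts for replicates 1 to 6, a range of 3.02-fold. The total of a library is the sum of its counts over all 115295 regions, not its number of sequenced reads. The 49704 regions with a mean of at least 10 counts over the 6 libraries held 87.8% to 89.4% of each total. In replicate 3 the 5000 strongest regions took 35.2% of all counts, whereas they took 30.6% to 32.3% in the other libraries. Chi-square divided by its degrees of freedom was 1.43 to 2.53 over the 15 pairs of PEM-HSC libraries, so no pair looked like 1 library deposited again.

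Most regions varied little once counts were scaled to the library totals. A chi-square test of homogeneity with Benjamini-Hochberg adjustment called 5498 of 49704 regions as varying beyond counting noise, which is 11.1% of those tested. The excess coefficient of variation (excess CV) estimates the spread around the expected counts beyond counting noise. Expected counts split the pooled counts of a region by library total. A region open in a single small library thus gets a larger value than one open in a single large library. The excess CV can exceed the CV of the CPM values, and regions and windows of widest spread are those of largest excess CV. Its median was 9.84% over all tested regions and 37.8% over the called ones. The excess CV was above 50% in 1667 called regions (3.35% of those tested) and above 100% in 132. Without replicate 3 the count of called regions was 3532. The test measures departure from counting noise alone and makes no allowance for ordinary spread among libraries. With noise that includes the trended dispersion, 1011 regions were called.

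Calls rose with the counts of a region while the spread itself fell. In the fifth of regions with the fewest counts 8.11% were called and the median excess CV was 14.2%. In the fifth with the most counts 14.5% were called and the median was 7.07%. The 5000 strongest regions held 16.9% of the called regions and 10.1% of the tested ones.

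The library that lay farthest from its expected count in a called region was replicate 3 in 1398 regions, replicate 5 in 1104, replicate 2 in 1074, replicate 4 in 835, replicate 6 in 721 and replicate 1 in 366. In every library this deviation was more often upward than downward. Replicate 2 was the most lopsided, standing higher in 946 regions and lower in 128, and replicate 3 stood higher in 808 and lower in 590. After all libraries were thinned at random to 1276962 counts, 1679 regions were called. Replicate 2 then led in 576 of them (516 higher, 60 lower) and replicate 3 in 428 (300 higher, 128 lower).

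**Figure D1:**
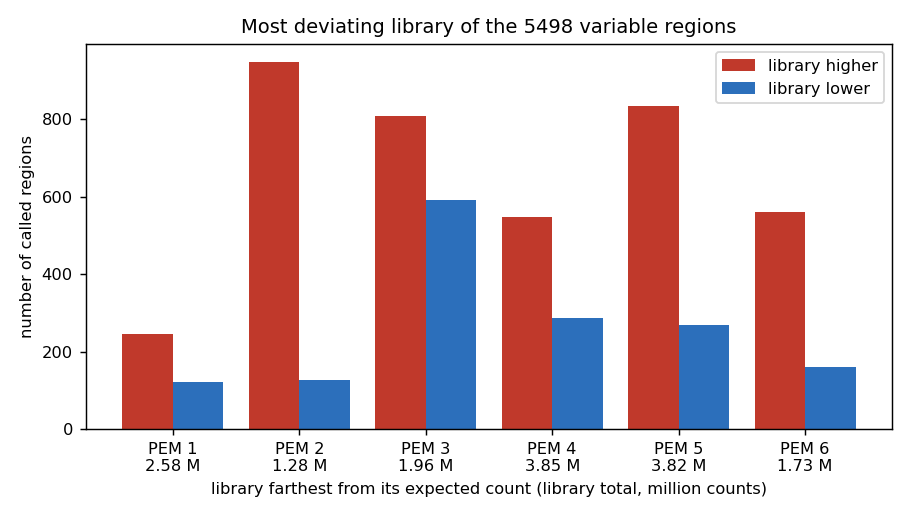
Bars give, for each PEM-HSC library (x axis, with its total in counts, M for 1000000), the number of variable regions (y axis) in which that library deviated most from its expected count, split into higher (red) and lower (blue). Replicate 2 shows 946 higher against 128 lower, and replicate 3 has 590 lower, the tallest blue bar.

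The region with the widest spread lay at chr8:124093934-124094732. Its counts in replicates 1 to 6 were 95, 76, 0, 10, 6 and 1, or 36.8, 59.5, 0, 2.60, 1.57 and 0.578 counts per 1000000 counts of the library (CPM). It was open in replicates 1 and 2, low in replicates 4 to 6, and not detected in replicate 3, where a count of 0 allows up to 1.53 CPM. Its excess CV was 208%, where the CPM of the 6 libraries had a mean of 16.9 and an SD of 25.3. The same region held 125, 2, 8 and 22 counts in the 4 MUL-HSC libraries and 113, 78 and 2 in the 3 PLT-HSC libraries, so that libraries of those groups too fell on both sides.

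The region of rank 6, chr17:4626084-4626666 (582 bp), had an excess CV of 160% and held 141, 3, 206, 35, 17 and 1 counts in replicates 1 to 6. Replicates 1 and 3 were high and replicates 2 and 6 were almost empty. MUL-HSC replicate 1 reached 359 counts there, against 38, 29 and 17 in the other MUL-HSC libraries. At chr19:6315535-6316068 replicates 1, 3 and 5 held 71, 16 and 48 counts and replicates 2, 4 and 6 held 0, 1 and 1. Of the other 7 libraries, 5 were at 0 in that region, with 10 counts in MUL-HSC replicate 2 and 1 in PLT-HSC replicate 3. At chr5:102132438-102133270 replicate 5 stood out with 88 counts beside 8, 1, 27, 2 and 2 in replicates 1, 2, 3, 4 and 6, and PLT-HSC replicate 3 had 44 where the other 6 libraries had 0 to 3.

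The 20 regions of widest spread with a mean of at least 20 counts had excess CVs from 109% to 208%. The most deviating library stood higher than expected in all 20, and it was replicate 2 in 11 of them, replicates 3 and 4 in 3 each, and replicates 1, 5 and 6 in 1 each. The region of rank 20, at chr13:60782316-60783588, had an excess CV of 109.5% and the next one, at chr8:97893297-97894177, had 107.5%, so the list ends within a continuous range. Counts cannot be negative, so a library can rise further above its expected count than it can fall below it. A ranking by excess CV thus favours regions with a high library. It also favours a high count in a small library, and replicate 2 was the smallest. The direction in all 20 regions and the 11 for replicate 2 were therefore partly set by the choice of regions. The ranking is a description of these libraries.

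**Figure D2:**
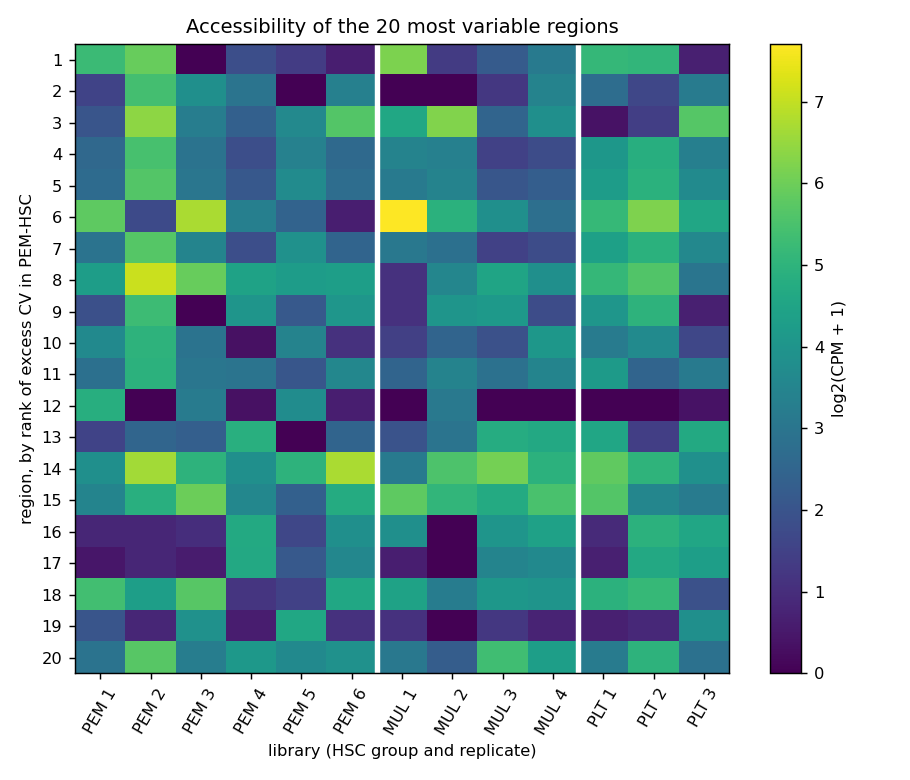
Colour gives log2(CPM + 1) of the 20 regions with the widest spread (rows, by rank) in the 6 PEM-HSC, 4 MUL-HSC and 3 PLT-HSC libraries (columns, split by white lines). Replicate 2 of PEM-HSC is bright in many rows, and rows 4, 5 and 7 on chromosome 7 share 1 pattern across all 13 libraries. Rows 16 and 17 on chromosome 1 are alike in PEM-HSC and PLT-HSC but differ in MUL-HSC replicate 1 (13.3 and 0.579 CPM).

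Some of these regions rose and fell together. Over the 190 pairs of the 20 regions, the median Pearson r of log2 CPM across the 6 libraries was 0.18, and 5 pairs exceeded 0.9. Of these 5 pairs, 3 joined regions on chromosome 7 at chr7:9314603-9315451, chr7:10033913-10034746 and chr7:10461857-10462549, with r of 0.976 to 0.997. These correlations are descriptions, since the 20 regions were chosen for their spread in these same 6 libraries. In 11 of the 20 regions replicate 2 was the most deviating library, and a shared high library by itself raises r.

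The chromosome 7 trio was high in replicate 2 and next in replicate 5. At chr7:10461857-10462549 the CPM was 5.43, 48.6, 7.15, 3.38, 12.03 and 5.78 in replicates 1 to 6. At chr7:9314603-9315451 it was 6.59, 50.1, 10.2, 2.60, 13.9 and 4.62. In the 7 libraries outside PEM-HSC, with group means removed, the 3 pairs again had r of 0.966 to 0.993. In edgeR's quasi-likelihood test of PLT-HSC against MUL-HSC, fitted without PEM-HSC, chr7:9314603-9315451 was higher in PLT-HSC by a log2 fold change of 2.26 (adjusted p = 0.00907). For chr7:10461857-10462549 the change was 1.73 (adjusted p = 0.0155) and for chr7:10033913-10034746 it was 1.72 (adjusted p = 0.207). The first 2 therefore passed the threshold and the last did not.

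The fourth pair lay on chromosome 1, 792124 bp apart. At chr1:31437040-31437647 replicates 1 to 6 held 2, 1, 2, 94, 8 and 23 counts, and at chr1:32229164-32230074 they held 1, 1, 1, 92, 13 and 19. Replicate 4 was the high library at both and replicate 6 followed, with r of 0.98. The 7 other libraries gave r of 0.86, with PLT-HSC replicates 2 and 3 high (71 and 74 counts at the first region) and PLT-HSC replicate 1 low (3 counts). MUL-HSC replicate 1 differed between the 2 regions, with 23 counts at the first and 1 at the second.

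The fifth pair joined chr10:69373215-69373732 and chr6:103264511-103264802, both high in replicates 2 and 6, with r of 0.98. In the 7 other libraries its r was -0.55, so a correlation of that size in 6 libraries did not recur there. The next pairs across chromosomes, with r of 0.80 to 0.90 in PEM-HSC, had r of -0.38 to 0.44 in the other libraries.

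Over all 5498 called regions, the median correlation of pairs fell with distance. Pairs under 10 kb apart (762 pairs) had a median r of 0.86, and pairs 10 kb to 100 kb apart a median of 0.66. The median was 0.096 for 100 kb to 1 Mb, 0.015 beyond 1 Mb on the same chromosome, and 0.011 between chromosomes. A median near 0 does not exclude pairs that varied together. An r over 0.8 was found in 57.5% of pairs under 10 kb and in 5.07% of pairs between chromosomes. How many such pairs unrelated regions would give in 6 libraries was not tested. The short-range values were lower without 342 regions tied to the library total, described with the slopes on the total, among which 52 form a block on chromosome 8. The medians were then 0.60 under 10 kb (421 pairs) and 0.21 for 10 kb to 100 kb.

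The same pairs were measured in the 7 MUL-HSC and PLT-HSC libraries with group means removed. Without the regions tied to the total, the median r there was 0.35 under 10 kb, 0.11 for 10 kb to 100 kb, 0.049 for 100 kb to 1 Mb and 0.015 between chromosomes. Among pairs with r over 0.8 in PEM-HSC, the median in the other libraries was 0.66 under 10 kb (125 pairs) and 0.64 for 10 kb to 100 kb (263 pairs). It was 0.19 for such pairs on different chromosomes. Neighbouring regions that moved together in PEM-HSC thus also had the higher correlations in libraries not used to pick them, though the size of this difference was not tested.

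**Figure D3:**
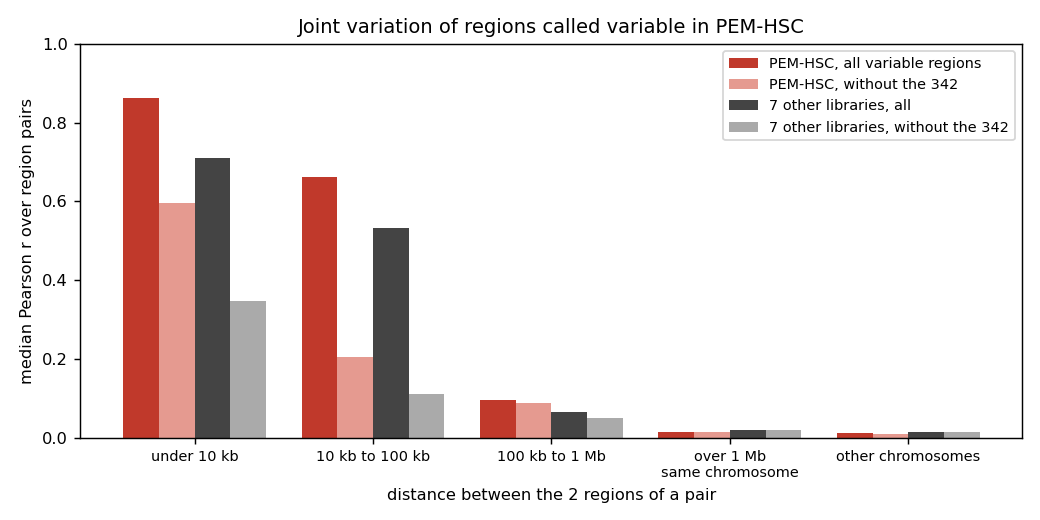
Bars give the median Pearson r (y axis) of log2 CPM over pairs of variable regions by distance (x axis), in the 6 PEM-HSC libraries (red) and in the 7 other libraries (grey), with and without the 342 regions whose share fell with the library total. All 4 bars drop towards 0 beyond 100 kb, and the PEM-HSC bar under 10 kb falls from 0.86 to 0.60 without the 342 regions.

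Adjacent called regions that shared their most deviating library and its direction formed runs, with gaps under 10 kb. Most called regions, 5230, stood alone. There were 96 runs of 2 regions, 5 of 3, and 1 each of 4, 5, 9 and 43. The longest 2 lay in the chromosome 8 block.

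The run of 4 regions at chr6:52167447-52176338 was less accessible in replicate 2. Its summed CPM was 109, 33.7, 114, 95.8, 99.4 and 114 in replicates 1 to 6. Replicate 2 lay below each of the other 12 libraries, since MUL-HSC stood at 96.7 ± 11.3 (SD, n = 4) and PLT-HSC at 104 ± 6.28 (SD, n = 3). Its 43 counts there compare with 148 in MUL-HSC replicate 2, a library of similar total (1307222 counts).

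The run of 5 regions at chrX:72984795-72995293 was lower in replicate 6, with 65.3 CPM against 157, 146, 162, 161 and 114 in replicates 1 to 5. Replicate 5 lay between replicate 6 and the other 4. MUL-HSC was at 148 ± 39.8 (SD, n = 4) and PLT-HSC at 144 ± 54.7 (SD, n = 3), and replicate 6 was below each of them. A run of 3 regions at chr8:75281340-75286477 was lower in replicate 3 (40.8 CPM, against 87.3 to 106 in the other 5 libraries), and 1 at chr2:167590432-167601343 was higher in replicate 5 (92.1 CPM, against 44.4 to 67.1).

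In windows of 1 Mb with at least 5 tested regions, the summed counts varied beyond counting noise in 817 of 1858 windows (44%), but only 48 had an excess CV above 20% and the median was 3.90%. Without replicate 3, 442 windows were called. The 4 windows of widest spread adjoined each other from chr14:3000001 to chr14:7000000, near the start of the assembled chromosome. In the window chr14:5000001-6000000 the CPM was 125, 346, 161, 92.7, 237 and 367 in replicates 1 to 6. Replicates 2 and 6 were highest and replicate 4 lowest there. In MUL-HSC that window ranged from 61.5 to 297 CPM, wider than in PLT-HSC, where it ranged from 225 to 314. The fifth window, chr8:126000001-127000000, had an excess CV of 47.4% and held 60 called regions of 89 tested.

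Whole chromosomes varied little. Chromosome X had the largest excess CV at 2.37% and took 1.54% to 1.65% of the counts of a library. Chromosome 8 followed at 2.28%, which became 1.23% without the window chr8:126000001-127000000.

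Variation with the library total was tested next, as a slope of log2 CPM on log2 total with edgeR's quasi-likelihood test. A share that fell as the total rose was called in 342 regions, 0.688% of those tested, and a rising share in 14, 0.0282%. At an unadjusted p below 0.05, 3153 regions passed. All 356 were also among the regions varying beyond counting noise. Without replicate 2, the smallest library, only 15 regions were called as falling and 6 as rising, and without replicate 6 they were 216 and 17. The estimates themselves stayed negative without replicate 2 in all 338 of these regions that could be tested, with a median slope of -0.86.

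The median slope of the 342 regions was -0.98, with quartiles of -1.10 and -0.87. A slope of -1 is that of a region whose raw count does not change with the total. Their summed counts were 23882, 26468, 23243, 30017, 28200 and 26438 in replicates 1 to 6, a range of 1.29-fold where the totals spanned 3.02-fold. They made up 2.07% of the counts of replicate 2 and 0.738% of those of replicate 5. The remaining tested regions held 86.3% to 88.2% of each PEM-HSC library, so their sum follows the total by construction. The 342 regions were chosen for their slope in these 6 libraries. Their negative slopes here follow from that choice, and their flat counts are not independent of it.

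**Figure D4:**
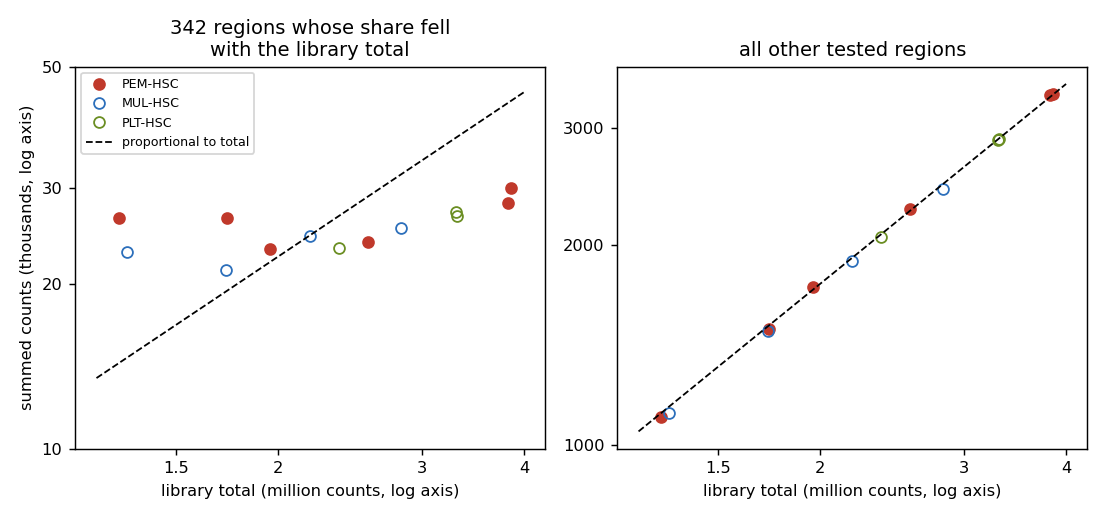
Summed counts (y axis in units of 1000 counts, log) against the library total (x axis in units of 1000000 counts, log) for the 342 regions whose share fell with the total in PEM-HSC (left) and for all other tested regions (right), 1 point per library, with a dashed line for proportional counts. The 342 regions lie between 21272 and 30017 counts in all 13 libraries, whereas the other regions follow the dashed line. The other regions hold most of every total and so follow it by construction, and the 342 were chosen for their slope in PEM-HSC.

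The regions were then measured in the 7 libraries that had no part in choosing them, with group as a second term. Their summed counts were 21272, 22948, 24489 and 25314 in MUL-HSC and 26678, 23331 and 27061 in PLT-HSC. Again the counts were nearly flat while MUL-HSC totals spanned 2.17-fold. The median slope was -0.93, it was negative in 319 of 342, and 84 of the 342 (24.6%) passed the test as falling, where 103 of all 49704 regions did (0.207%). None of the 342 passed as rising, where 2 of all tested regions did (0.00402%). Leaving out each of the 7 libraries gave median slopes from -1.01 to -0.83. The calls over all regions in either direction, 105 with all 7 libraries, were 0 without MUL-HSC replicate 2 by edgeR (2155 at an unadjusted p below 0.05), 2 without MUL-HSC replicate 4, and 61 when PLT-HSC replicate 2 was left out.

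The 342 regions were narrow, with a median width of 487.5 bp beside 754.5 bp over all tested regions. A width under 300 bp was found in 33.3% of them and in 3.53% of the other tested regions. They lay on 20 chromosomes, with 65 on chromosome 8 and 4 to 31 on each of the others. Tested regions numbered 2557 on chromosome 8 and 1041 to 3902 on each of the others.

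The smallest p among them belonged to chr8:15519697-15520198, with 154, 227, 190, 192, 204 and 201 counts in replicates 1 to 6. The smallest library thus gave the largest count. As CPM this is 59.7, 178, 97.0, 49.9, 53.4 and 116, and the slope was -1.11 ± 0.11 (SE, adjusted p = 7.77e-05). In the other 7 libraries its slope was -0.50 ± 0.21 (SE, adjusted p = 0.9998), so the call was not repeated there for this region alone. At chr8:73956900-73957161 counts were 139, 178, 130, 154, 147 and 154, the slope was -1.10 ± 0.11 (SE, adjusted p = 7.77e-05), and in the other libraries it was -0.97 ± 0.16 (SE, adjusted p = 0.00644). This region did pass in both sets. The third by p was chr4:138893940-138894420, with 87, 112, 95, 93, 103 and 116 counts and a slope of -1.14 ± 0.12 (SE, adjusted p = 8.35e-05).

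A block on chromosome 8 held 52 of the 342 regions within 85648 bp, chr8:126062361-126148009. All 53 tested regions in that span varied beyond counting noise. Summed over the 52 regions, counts were 4904, 5629, 3809, 5607, 5254 and 5318 in replicates 1 to 6. Replicate 3 was the low library and the smallest library, replicate 2, was the highest. In the 7 other libraries all 52 slopes were negative, with a median of -1.04, and 32 passed the test.

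The 3 rising regions of smallest p had few or no counts in replicates 1, 2, 3 and 6. At chr8:79975362-79975915 replicates 4 and 5 held 33 and 36 counts and the other 4 libraries held 0. At chrX:76762289-76763092 they held 31 and 41 counts and the others 0. At chr10:121218034-121218713 replicates 1 to 6 held 1, 1, 4, 44, 33 and 1 counts. Replicates 4 and 5, the libraries with the largest totals, were high in all 3 regions. A count of 0 allows up to 1.16, 2.35, 1.53 and 1.73 CPM in replicates 1, 2, 3 and 6 (3 counts per library), below the 8.57 and 9.42 CPM of replicates 4 and 5 in the first region. In the other 7 libraries the slopes of these 3 regions had adjusted p of 0.935 or more.

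Variation with the counting share of the 5000 strongest regions was called in few regions, 10 rising (0.0201% of those tested) and 1 falling (0.00201%), and 8 of the 11 were themselves among the strongest regions that define the share. At an unadjusted p below 0.05, 5318 passed. Without replicate 3, which had the highest share, 1 region was called. Without replicates 2, 5 and 6 in turn, 17, 24 and 34 were called. At chr4:3865221-3866698 the CPM was 97.3, 90.1, 154, 90.6, 97.3 and 82.6 in replicates 1 to 6, with a slope on the log2 scale of 0.20 ± 0.03 per percentage point (SE, adjusted p = 0.0271). At chr18:24831511-24832107 it was 10.9, 18.8, 44.4, 8.05, 8.63 and 8.66, and at chr11:87404665-87406193 it was 158, 146, 228, 155, 160 and 112. Replicate 3 was the highest library in all 3. The falling region, chr4:84331480-84332191, held 6, 7, 0, 13, 17 and 24 counts, with replicate 3 at 0. A slope on the share was not fitted in the 7 other libraries.

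The main axes of variation were compared with both measures over the 6 libraries, as a family of 7 relations with two-sided exact permutation tests. Components 1 and 2 of a principal component analysis of log2 CPM carried 29.7% and 26.1% of the variance. The first had a Pearson r of 0.54 with the log2 total (exact permutation p = 0.278, adjusted 0.486; Spearman rho 0.43, p = 0.419, adjusted 0.919) and of 0.48 with the share (exact permutation p = 0.272, adjusted 0.486; rho 0.49, p = 0.356, adjusted 0.919). Without the 2 libraries farthest from the median on the x axis these became -0.37 and 0.14. The first was -0.36 without replicate 2 alone, and the second was -0.18 without replicate 3 alone. The second component had an r of -0.86 with the share (exact permutation p = 0.0222, adjusted 0.156; rho -0.94, p = 0.0167, adjusted 0.117), and -0.30 without those 2 libraries. The r of the second component with the total was 0.53 (exact permutation p = 0.269, adjusted 0.486, with rho 0.26, p = 0.658, adjusted 0.919). No relation passed after adjustment.

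With every library thinned to the smallest total the components changed. The first (26.0% of the variance) then had an r of 0.92 with the share (exact permutation p = 0.0347, adjusted 0.122; rho 0.94, p = 0.0167, adjusted 0.0583), and 0.73 without the 2 farthest libraries. The second (23.4%) had an r of 0.90 and a rho of 1 with the total before thinning. Its exact permutation p was 0.00139 for r (adjusted 0.00972) and 0.00278 for rho (adjusted 0.0194), the smallest that the 720 pairings can give for each, and r was 0.77 without the 2 farthest libraries. The order of the 6 libraries on this component was that of their original totals. Without the 342 regions this relation had an r of 0.87 (exact permutation p = 0.00139, adjusted 0.00972), again with a rho of 1. Without the 2 farthest libraries r was then 0.89. Before thinning, component 2 had an r of 0.53 with the total and did not pass. Thinning was a single random draw, and each adjustment covers the 7 relations of its own setting.

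A further axis was built from the libraries outside PEM-HSC. In edgeR's quasi-likelihood test of PLT-HSC against MUL-HSC, 1538 of 53120 regions differed (2.9%), 636 higher and 902 lower in PLT-HSC. This count was 738, 782, 2330 and 598 without MUL-HSC replicates 1 to 4 in turn, and 568, 834 and 2323 without PLT-HSC replicates 1 to 3. Library totals were 1307222 to 2831520 counts in MUL-HSC and 2378024 to 3307889 in PLT-HSC, and the fit had no term for the total. The part of the totals in this list, from which the axis was built, was not tested. Of the 47534 regions tested in both sets, 1206 differed between PLT-HSC and MUL-HSC (2.54%). Among the 5241 regions that varied within PEM-HSC the number was 374 (7.14%), 191 higher and 183 lower. Of the 342 regions tied to the library total, 337 were tested in both sets and 17 differed (5.04%), 0 higher and 17 lower. Regions varying in PEM-HSC also had more counts, a median of 32 beside 25.3 over all tested regions. The part of these higher counts in the 7.14% was not tested.

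Each PEM-HSC library was scored by its median log2 CPM deviation over the 587 regions higher in PLT-HSC minus that over the 619 regions lower in PLT-HSC. The scores were 0.05, 0.42, -0.15, -0.36, 0.44 and -0.35 for replicates 1 to 6. Deviations were taken from the mean of the 6 PEM-HSC libraries, so the scores centre near 0 by construction and give the order of these libraries, not their place relative to the PLT-HSC or MUL-HSC libraries. Replicates 2 and 5 scored highest and replicates 4 and 6 lowest. In replicate 5 this came mostly from the regions higher in PLT-HSC (0.36, and -0.09 over the lower ones), whereas in replicates 4 and 6 it came mostly from the regions lower in PLT-HSC (0.26 and 0.28, and -0.10 and -0.07 over the higher ones).

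Neither relation of the axis score with the total or the share passed the test. Its r with the total was -0.10 (exact permutation p = 0.835, adjusted 0.943; rho -0.20, p = 0.714, adjusted 0.919) and with the share -0.05 (exact permutation p = 0.943, adjusted 0.943; rho 0.09, p = 0.919, adjusted 0.919). Replicates 2 and 5, which scored alike, had the smallest and nearly the largest total. Without the 2 libraries of most extreme total, r with the total over the other 4 was 0.995, and without those of most extreme share r with the share was -0.24. Leaving out 1 library changed signs: r with the total was 0.43 without replicate 2 and 0.25 without replicate 4, and r with the share was 0.04, 0.43 and 0.13 without replicates 2, 3 and 5.

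**Figure D5:**
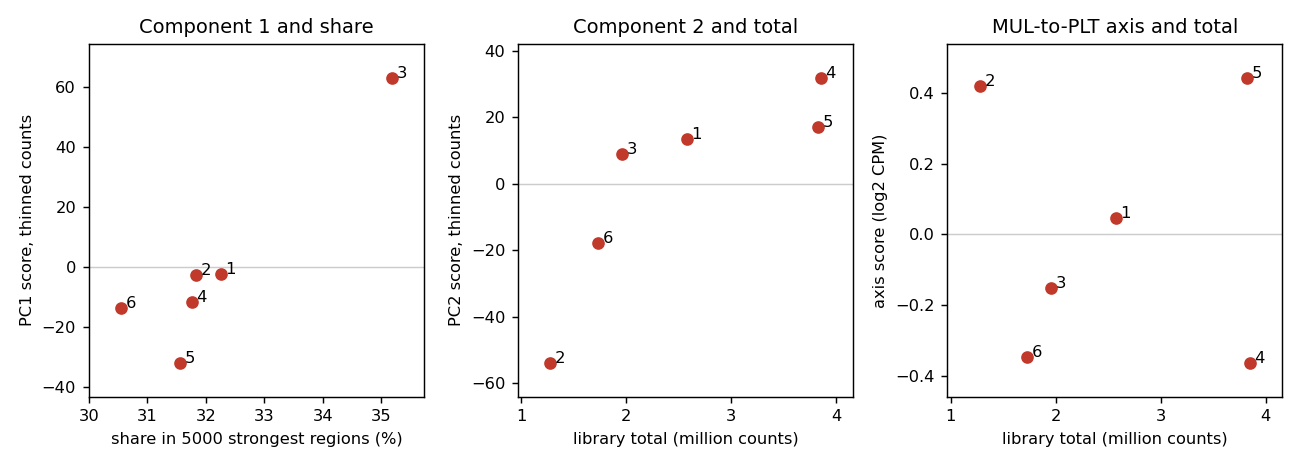
Each point is a PEM-HSC library, marked with its replicate number. Left, score on component 1 of thinned counts against the share of all counts taken by the 5000 strongest regions (%). Middle, score on component 2 of thinned counts against the library total (in units of 1000000 counts). Right, MUL-to-PLT axis score (log2 CPM) against the library total, where replicates 2 and 5 score 0.42 and 0.44 at opposite ends of the range of totals.

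The spread within PEM-HSC was set beside that in the other groups over 41272 regions that reached the count minimum in all 3. The biological coefficient of variation was 13.7% in PEM-HSC, 12.7% in MUL-HSC and 14.2% in PLT-HSC, and these were not tested against each other. Of the 4566 regions called in PEM-HSC, 878 (19.2%) also varied beyond counting noise among the MUL-HSC libraries, where 4.17% of all common regions did. Among the PLT-HSC libraries the numbers were 962 (21.1%) and 6.7%. These are 51.0% of the regions called in MUL-HSC and 34.8% of those called in PLT-HSC, where 11.1% of all common regions were called in PEM-HSC. Regions tied to the library total were kept in these lists, and calls rose with the counts of a region. The part of both in the overlap was not tested. The median excess CV of the PEM-HSC list was 14.9% in MUL-HSC, beside 5.36% for regions not called in PEM-HSC, and 14.5% beside 6.47% in PLT-HSC. The groups have 4 and 3 libraries, so their power to call a region is not that of the 6 PEM-HSC libraries.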

How the data were processed

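The 13 libraries are bulk Omni-ATAC-seq. The authors deposited 1 table of raw counts, whole numbers per region, for 115295 regions in mm9. The submitters' processing notes list MACS2, Picard, SAMtools, Bowtie2, FastQC and Trim Galore. Not given in the sources used here are versions, the counting tool, duplicate handling, the shift of read ends, any pooling for peak calling, and whether starts count from 0 or 1. A region called mainly in deep libraries would be under-represented in shallow ones.

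Counts were scaled to column totals. Regions with a mean of at least 10 counts over the 6 PEM-HSC libraries were tested by chi-square (5 degrees of freedom), and the excess CV is the root of the dispersion at which the statistic equals 5. Slopes and PLT-HSC against MUL-HSC (filterByExpr) used edgeR 4.0.16 (robust glmQLFit and glmQLFTest) in R 4.3.3, with Benjamini-Hochberg adjustment over all tested regions, called at 0.05. Log2 CPM used a prior count of 2. The scripts were tested on simulated data. Named were the 20 regions of largest excess CV with a mean of at least 20 counts, 3 regions per direction of each slope test, the longest runs, 5 windows and 2 chromosomes. Other runs and pairs given were chosen after their values were seen. The libraries, the lists and the tests were chosen with earlier results of these data known. The gene and marker lists were not tested, because no mm9 annotation was used. Limits for a count of 0 (3 counts per library) cover counting error alone, as the labels name no molecular identifiers. The SEs of slopes come from the quasi-likelihood fit and include its dispersion between libraries. Alternatives were TMM factors, DESeq2 1.42.0 (size factors and Wald test), other count minimums, a prior count of 0.5, 1000 strongest regions, thinning, noise with the trended dispersion, no robust estimation, both covariates together, windows of 200 kb, no chromosome X or Y, and leaving out each library.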

Additional observations from a re-analysis of the deposited data

Results flagged for a closer look

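In 51 sets of 6 PEM-HSC values, 12 had a highest or lowest library set far apart from the other 5. Chance alone marks about 1 in 20 such sets, and most of the sets are regions that were chosen for their spread, so that isolated libraries follow from the choice. The choice by excess CV also favours a high count in the smallest library, replicate 2.

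Replicate 2 was the isolated high library in 7 of them, with 41.5 CPM at chr11:54139688-54140596, 43.1 at chr7:10033913-10034746, 48.6 at chr7:10461857-10462549, 50.1 at chr7:9314603-9315451, 135 at chr10:86930321-86932502, 29.8 at chr7:107653655-107654003 and 50.9 at chr13:60782316-60783588. The highest of the other 5 libraries in these regions was 13.3, 9.42, 12.03, 13.9, 59.7, 11.0 and 16.1 CPM in the same order. Replicate 2 was the isolated low library in the run of 4 regions on chromosome 6, at 33.7 CPM beside 95.8 to 114.

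Replicate 3 stood apart in how much of its counts the 5000 strongest regions took, 35.2% beside 30.6% to 32.3%. It was the isolated high library at chr18:24831511-24832107, with 44.4 CPM beside 8.05 to 18.8, and at chr4:3865221-3866698, with 154 CPM beside 82.6 to 97.3. Replicate 4 was isolated at chr1:187175596-187176480, with 28.3 CPM beside 0 to 4.70.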

How the results depend on the processing

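No paired analysis was possible because the results lie within the single PEM-HSC group, and PLT-HSC was set against MUL-HSC only to choose regions. Where a value moved, the cause was not tested unless the alternative itself used fewer counts, regions or libraries.

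The 5498 regions varying beyond counting noise became 1679 after thinning to the smallest total, 1011 with noise that includes the trended dispersion, and 2039 without the libraries under 2000000 counts. The last was chosen after seeing the data, as were the scaling outside the strongest regions, the neighbour values without the chromosome 8 window, the neighbour and thinned values without the 342 regions, and the slopes in the other 7 libraries. The 817 variable windows became 362 after thinning, 214 without those libraries, and 1236 of 4085 with windows of 200 kb.

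The 356 slopes on the total stayed within 1.5 times under all 10 alternatives that kept the 6 libraries. The 11 slopes on the share became 46 with TMM factors, 53 with DESeq2 size factors, 26 with a mean of at least 20 counts, 41 with no filter, 58 with both covariates in 1 model, and 117 with scaling outside the 5000 strongest regions. They became 0 with the DESeq2 Wald test (2054 at an unadjusted p below 0.05) and 0 with edgeR without robust estimation (5211). Thinning turned the r of the first component with the total to -0.38, and to -0.27 also without the 342 regions.

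The median r of neighbours was 0.65 without the chromosome 8 window and 0.60 without the 342 regions. PLT-HSC against MUL-HSC gave 2349 regions with no filter.

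Leaving out each library gave 3532 to 5579 regions beyond counting noise, 21 to 406 slopes on the total, 1 to 34 on the share, 442 to 809 windows, and a neighbour r of 0.86 to 0.95. The first component had an r of -0.36 to 0.77 with the total and of -0.18 to 0.98 with the share. The axis score had an r of -0.60 to 0.43 with the total and of -0.41 to 0.43 with the share. PLT-HSC against MUL-HSC gave 568 to 2330 regions. Slopes on the total in the other 7 libraries gave 0 to 101 regions, the 0 without MUL-HSC replicate 2 by edgeR, where 2155 regions had an unadjusted p below 0.05, 171 of them among the 342. DESeq2 was not run on these slopes.

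With 6 libraries and means from 10 counts, small differences at weak regions could not be detected, and 4 residual degrees of freedom limit each slope.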
